A study of Saccharomyces cerevisiae BY4741 with 2 samples.

Results

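The subject is the histone genes of the budding yeast Saccharomyces cerevisiae, 10 genes that were taken by their systematic names out of the 7134 rows of a table of sense-strand read counts. All 10 genes were in the table and all 10 passed the filter on low counts. They are both copies of the genes for H2A (HTA1 and HTA2), H2B (HTB1 and HTB2), H3 (HHT1 and HHT2) and H4 (HHF1 and HHF2), the single gene for the variant H2A.Z (HTZ1) and the single gene for the linker histone H1 (HHO1). The study compared a wild type with a strain that lacks DBP2, the gene of a DEAD-box RNA helicase, with 2 libraries of total RNA per strain. Both strains are labelled MATa. Cells came from mid-log cultures in rich medium with glucose, no synchronisation is named, and ribosomal RNA was depleted before strand-specific sequencing. The wild type carries the alleles his3Δ1, leu2Δ0, met15Δ0 and ura3Δ0. The deletion strain carries dbp2::KanMx, in which a drug-resistance cassette replaces DBP2, with ura3Δ0, leu2Δ0 and his3Δ0, and is also described as TRP1, met- and lysΔ, so the deletion cannot be told apart from the rest of the strain background. Nothing in the labels says that both libraries of a strain stem from separate cultures, so every p-value reflects the spread among these 4 libraries alone, and that spread may be technical.

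Core histones form the protein spool of the nucleosome, which holds equal numbers of H2A, H2B, H3 and H4. In budding yeast each core histone is encoded by a pair of genes, and the genes stand back to back: an H2A gene shares its upstream region with an H2B gene, and an H3 gene with an H4 gene. Their transcription peaks in S phase, when new DNA is packed, and is driven by Spt10 and Spt21. The HIR complex restrains the pairs HTA1-HTB1, HHT1-HHF1 and HHT2-HHF2 outside S phase, but not HTA2-HTB2. In bulk RNA from an unsynchronised culture, fewer cells in S phase and less RNA per cell cannot be told apart.

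The 4 divergent regions carry the element from which the core genes are driven, and they are shown because each region serves a pair of genes whose counts are compared. The core of the histone upstream activating sequence, searched as TTCC, any 6 bases and TTC on both strands, matched 2 times between HTB1 and HTA1 and once in each of the other 3 regions. The windows below are 200 bases each on the plus strand of the R64 genome (RefSeq), in lower case with each match in capitals.
HTA1-HTB1, chrIV:915026-915225: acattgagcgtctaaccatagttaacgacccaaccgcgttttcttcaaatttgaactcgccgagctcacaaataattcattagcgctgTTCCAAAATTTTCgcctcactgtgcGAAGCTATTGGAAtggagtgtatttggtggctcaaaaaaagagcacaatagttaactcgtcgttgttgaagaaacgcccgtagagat
HTA2-HTB2, chrII:236010-236209: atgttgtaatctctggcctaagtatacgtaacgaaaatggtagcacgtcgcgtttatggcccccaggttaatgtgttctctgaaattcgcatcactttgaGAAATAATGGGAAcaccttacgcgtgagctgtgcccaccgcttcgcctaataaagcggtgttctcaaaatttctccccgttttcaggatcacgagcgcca
HHT1-HHF1, chrII:255846-256045: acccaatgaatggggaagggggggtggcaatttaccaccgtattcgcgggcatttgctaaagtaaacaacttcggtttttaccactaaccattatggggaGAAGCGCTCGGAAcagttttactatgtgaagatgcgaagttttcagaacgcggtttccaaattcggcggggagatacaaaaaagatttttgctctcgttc
HHT2-HHF2, chrXIV:576248-576447: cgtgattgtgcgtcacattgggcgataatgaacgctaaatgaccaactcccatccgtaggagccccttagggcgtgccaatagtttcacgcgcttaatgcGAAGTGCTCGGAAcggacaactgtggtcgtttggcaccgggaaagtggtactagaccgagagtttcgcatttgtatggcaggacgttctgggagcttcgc
The regions were 817 bases (HTA1-HTB1), 699 bases (HTA2-HTB2), 646 bases (HHT1-HHF1) and 676 bases long (HHT2-HHF2), with no annotated gene inside. In the 600 bases upstream of the coding start, the element was found for all 8 core genes and for neither HTZ1 nor HHO1, against 15.9% of 5999 protein-coding genes. The SBF element CGCGAAA was found upstream of HTA1, HTB1, HHT2, HHF2 and HHO1 (6.45% of all genes), and the MBF element ACGCGT upstream of HTA2 and HTB2 (6.33% of all genes). Both of these were searched on both strands, and no match in the histone regions overlapped a match to another of the 3 motifs. Core genes share their regions in pairs, so each match there was counted for both genes of a pair. The first element was searched as a known histone element, so its presence at these genes is no result of these data. A match is a description of the letters and not a measured binding site.

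The copies of each core histone are near-identical, so how well a read can be assigned to its copy bears on every value below. HTA1 and HTA2 agreed at 374 of 399 coding bases, HTB1 and HTB2 at 348 of 396, HHT1 and HHT2 at 383 of 411, and HHF1 and HHF2 at 304 of 312. The encoded proteins differ at 2 residues for H2A and 4 for H2B, and at none for H3 and H4. Of all 35-base windows of the coding sequence, 10.4% of HTA1 and HTA2, 0.276% of HTB1 and HTB2, 21.5% of HHT1 and HHT2, and 34.9% of HHF1 and HHF2 occur elsewhere in the genome, and none of HTZ1 or HHO1. Neither the read length nor the treatment of reads that match several places is given in the sources used here: values per copy of the H2A, H3 and H4 genes are uncertain to that extent. The stretches of 150 bases in which the copies differ most are shown for H2A and H4, whose copies moved apart, with the differing bases in capitals.
HTA1: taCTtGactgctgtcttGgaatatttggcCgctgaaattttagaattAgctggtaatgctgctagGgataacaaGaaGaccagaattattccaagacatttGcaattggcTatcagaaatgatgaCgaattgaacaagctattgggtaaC
HTA2: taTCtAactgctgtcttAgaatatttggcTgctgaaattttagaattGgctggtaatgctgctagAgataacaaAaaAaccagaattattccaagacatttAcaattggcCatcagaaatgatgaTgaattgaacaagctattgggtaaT
HHF1: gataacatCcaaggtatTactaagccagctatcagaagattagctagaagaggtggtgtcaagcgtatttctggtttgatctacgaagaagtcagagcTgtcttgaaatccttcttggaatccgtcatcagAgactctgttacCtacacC
HHF2: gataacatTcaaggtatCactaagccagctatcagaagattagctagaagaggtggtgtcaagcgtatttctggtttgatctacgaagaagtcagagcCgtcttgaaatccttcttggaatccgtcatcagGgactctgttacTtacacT
The H2A stretch is coding bases 154 to 303 and holds 13 of the 25 differing bases, and the H4 stretch is coding bases 73 to 222 and holds 6 of 8.

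The libraries held 10860000 and 12586037 counts (wild type 1 and 2) and 36028173 and 24961576 counts (deletion 2 and 3), and the histone genes took 0.263% to 0.292% of them. DBP2 was counted 7320 and 9662 times in wild type but 66 and 237 times in the deletion libraries, a drop as labelled. The remaining DBP2 reads differed between deletion 2 and deletion 3, and their source was not tested. LYS2 went from 2373 and 2809 counts to 8 and 5 in the strain described as lysΔ. MET17, also called MET15, had 8 and 1 counts in the met15Δ0 wild type but 1772 and 1243 in the deletion libraries, whose label met- names no gene. All 6 marker genes of MATa cells were read in both strains (sums of 812 and 833 CPM, counts scaled to library size with TMM factors, against 681 and 677 CPM in the deletion strain), while 4 genes of MATalpha cells summed to 4.03 and 2.84 CPM and to 11.8 and 8.47 CPM. MF(ALPHA)1, a pheromone gene that defines MATalpha cells, had 0 counts in both wild-type libraries and 1 in each deletion library. Single markers did not all stay level in edgeR's quasi-likelihood test. SAG1 held most MATalpha counts (34 and 27 in wild type, 426 and 233 in the deletion strain) and was called higher (log2 fold change 1.57, adjusted p = 0.00734). STE3 was not called. Of the MATa genes BAR1 was called lower (-2.06, adjusted p = 1.64e-04), and STE2, MFA1, MFA2, AGA2 and STE6 were not called.

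In the deletion strain the histone genes did not move as a group. With TMM factors HTA2 and HHF2 fell to about 51% of wild type, while the other genes for the same histones, HTA1 and HHF1, did not pass the test. Both H2B genes and the H1 gene rose, and the H3 genes and HTZ1 did not pass. Of the 10 genes, 3 were called higher and 2 lower in edgeR's quasi-likelihood test (adjusted p below 0.05 over all 6124 features tested), with 5 not called. The background was 41.9% of features called, 21.2% higher and 20.7% lower, so the share of histone genes called is near that of all features. The median log2 fold change of the 10 genes was -0.0054, against 0.0146 over all features. In 9 of the 10 genes the libraries of the strains did not overlap in scaled CPM (5 higher and 4 lower in the deletion strain), against 74.7% of features tested (38.3% higher and 36.3% lower).

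In wild type the H3 gene HHT1 had the highest level per length, 2289 ± 100 CPM per kb of coding sequence (SD, n = 2). HTA2 (1848 ± 255), HHF2 (1516 ± 24.3), HHT2 (1133 ± 91.4), HHF1 (743 ± 49.7) and HTA1 (466 ± 35.7) followed, each without overlap with its neighbour in this order. The H2B genes stood far below, with HTB1 at 85.7 ± 17.8 and HTB2 at 66.6 ± 16.4 CPM per kb, and HTZ1 (38.1 ± 20.0) and HHO1 (37.4 ± 6.49) were lowest. Within HTB1 and HTB2, and within HTZ1 and HHO1, the wild-type libraries overlapped. HHT1 ranked 69 from the top of 6011 protein-coding genes, HTB2 ranked 1482 and HHO1 2229. In the deletion strain the order changed: HHT1 stayed highest (2018 ± 62.7), followed by HHT2 (970 ± 106), HTA2 (949 ± 89.3), HHF1 (842 ± 1.69), HHF2 (775 ± 106) and HTA1 (525 ± 25.8). There HHT2 overlapped HTA2 and HHF1 overlapped HHF2. HTB1 (139 ± 7.84), HTB2 (118 ± 27.2), HHO1 (84.2 ± 6.75) and HTZ1 (24.8 ± 3.61) closed the order, with overlap between HTB1 and HTB2.

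**Figure D1:**
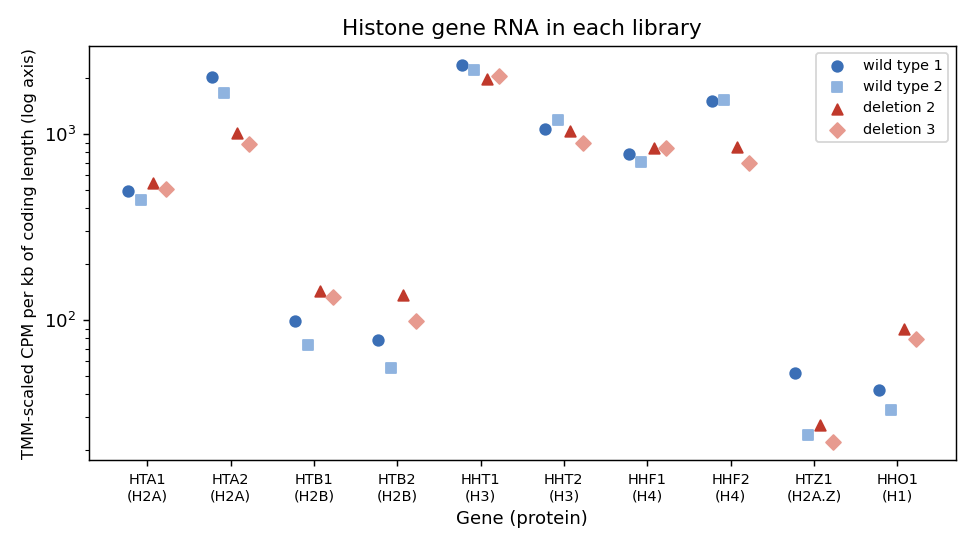
Scaled CPM per kb of coding length (log axis) of each histone gene in each of the 4 libraries. The deletion libraries lie below wild type for HTA2 and HHF2 and above it for HTB1, HTB2 and HHO1, and the H2B genes lie below all other core genes.

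HTA2 (YBL003C, chromosome II, 235394 to 235792, minus strand), which encodes H2A, had 7424 and 7267 counts in wild type against 16449 and 10638 in the deletion strain, that is 809 and 666 CPM against 404 and 353 CPM. Both deletion libraries lie below both wild-type libraries. The log2 fold change was -0.96 (SE 0.19, adjusted p = 0.00391), and it was -0.44 (adjusted p = 0.081) with abundance-dependent offsets (a loess fit of each library against the mean of all libraries), the only one of 13 alternatives that ended the call. With library totals in place of TMM factors it was -0.514 (adjusted p = 0.0395). HTA1 (YDR225W, chromosome IV, 915530 to 915928, plus strand), the other H2A gene, had 196 and 176 CPM in wild type against 217 and 202 CPM in the deletion strain. These groups lie apart by a small step, and the log2 fold change of 0.17 (SE 0.19, adjusted p = 0.485) did not pass. HTA1 passed as higher with library totals in place of TMM factors (0.62, adjusted p = 0.0212).

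Expressed as a share, which does not depend on a single scaling factor per library, HTA1 supplied 19.5% (95% Wilson interval 18.7% to 20.3%) and 20.9% (20.1% to 21.8%) of H2A counts in wild type. In the deletion strain it supplied 34.9% (34.3% to 35.5%) and 36.4% (35.7% to 37.1%). The mean share went from 20.2% ± 0.99 to 35.7% ± 1.0 (SD, n = 2), a difference of 15.4 percentage points. The ratio of HTA1 to HTA2 counts was 2.19-fold higher in the deletion strain, and the strains did not overlap. An exact permutation test (two-sided) of 2 against 2 libraries gave p = 0.333, the smallest value it allows. Such intervals cover counting error only. Abundance-dependent offsets can shift 1 copy against the other. With them the log2 fold change was 0.486 for HTA1 and -0.437 for HTA2, against 0.171 and -0.962 with TMM factors.

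The H4 genes showed a like shift. HHF2 (YNL030W, chromosome XIV, 576727 to 577038, plus strand) had 4291 and 5224 counts in wild type against 10808 and 6579 in the deletion strain, that is 468 and 478 CPM against 265 and 219 CPM. The deletion libraries lie well below wild type, and the log2 fold change was -0.97 (SE 0.19, adjusted p = 0.00371), past the threshold in the main fit and in all 13 alternatives. Its size depended on scaling: it was -0.524 with library totals (adjusted p = 0.0406) and -0.545 with abundance-dependent offsets (adjusted p = 0.0385). HHF1 (YBR009C, chromosome II, 255373 to 255684, minus strand), which encodes the same H4 protein, had 243 and 221 CPM in wild type against 262 and 263 CPM in the deletion strain (a log2 fold change of 0.18, SE 0.18, adjusted p = 0.449). It passed as higher with library totals (0.63, adjusted p = 0.0186) and with abundance-dependent offsets (0.55, adjusted p = 0.0413). HHF1 supplied 34.2% and 31.6% of H4 counts in wild type against 49.7% and 54.6% in the deletion strain. The mean share went from 32.9% ± 1.8 to 52.2% ± 3.5 (SD, n = 2), 19.3 percentage points higher, so the minor H4 gene of wild type supplied about as many counts as the other in the deletion strain. The ratio of HHF1 to HHF2 was 2.23-fold higher there, with no overlap (exact permutation p = 0.333, again the smallest possible).

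**Figure D2:**
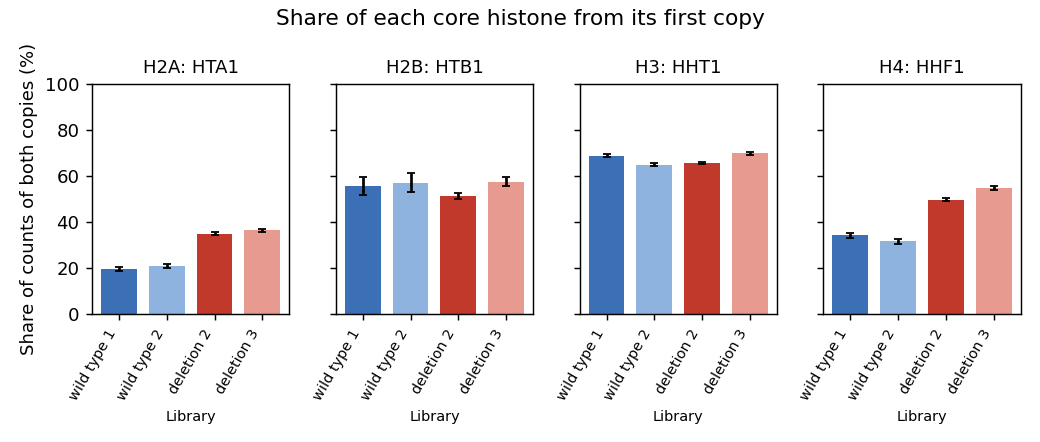
Share of the counts of both copies that came from HTA1, HTB1, HHT1 and HHF1 in each library, in percent, with 95% Wilson intervals. The HTA1 share is 19.5% and 20.9% in wild type against 34.9% and 36.4% in the deletion strain, the HHF1 share also lies higher in the deletion strain, and the HTB1 and HHT1 shares overlap between strains.

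The H3 genes kept neither a called change nor a shift between copies. HHT1 (YBR010W, chromosome II, 256331 to 256741, plus strand) had 970 and 912 CPM in wild type against 811 and 848 CPM in the deletion strain (a log2 fold change of -0.18, SE 0.17, adjusted p = 0.409). HHT2 (YNL031C, chromosome XIV, 575640 to 576050, minus strand) had 439 and 492 CPM in wild type against 430 and 368 CPM in the deletion strain (a log2 fold change of -0.22, SE 0.19, adjusted p = 0.356). The deletion libraries lie below wild type for both genes, narrowly for HHT2, but the sign turned with library totals (0.27 for HHT1 and 0.22 for HHT2) and with abundance-dependent offsets (0.46 and 0.25), so no direction holds for H3. HHT1 supplied 68.8% and 64.9% of H3 counts in wild type against 65.4% and 69.7% in the deletion strain, and these ranges overlap.

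Both H2B genes rose. HTB1 (YDR224C, chromosome IV, 914317 to 914712, minus strand) had 357 and 316 counts in wild type against 2325 and 1586 in the deletion strain, that is 38.9 and 28.9 CPM against 57.1 and 52.7 CPM. HTB2 (YBL002W, chromosome II, 236492 to 236887, plus strand) had 284 and 238 counts in wild type against 2209 and 1174 in the deletion strain, that is 31.0 and 21.8 CPM against 54.2 and 39.0 CPM. The strains do not overlap for either gene. The log2 fold change was 0.70 for HTB1 (SE 0.22, adjusted p = 0.0286) and 0.82 for HTB2 (SE 0.25, adjusted p = 0.0280). Both calls were lost without deletion 2 (adjusted p = 0.108 for HTB1 and 0.188 for HTB2) and without wild type 2 (0.106 and 0.114), and that of HTB2 with abundance-dependent offsets (0.0527). HTB1 supplied 55.7% and 57.0% of H2B counts in wild type against 51.3% and 57.5% in the deletion strain, which overlap.

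HHO1 (YPL127C, chromosome XVI, 308828 to 309604, minus strand), whose product H1 binds the linker DNA between nucleosomes, had the largest rise among the 10 genes. It had 299 and 278 counts in wild type against 2818 and 1859 in the deletion strain, that is 32.6 and 25.5 CPM against 69.2 and 61.7 CPM. Both deletion libraries stand above both of wild type. The log2 fold change was 1.18 (SE 0.21, adjusted p = 0.00250), and it passed in the main fit and in all 13 alternatives (1.05 to 1.62). HTZ1 (YOL012C, chromosome XV, 303579 to 303983, minus strand) encodes H2A.Z, which replaces H2A beside many promoters and is identical to the HTA1 product at 80 of 127 aligned residues. It had 194 and 106 counts in wild type against 451 and 271 in the deletion strain, that is 21.1 and 9.71 CPM against 11.1 and 9.001 CPM. The strains overlap, and wild type 1 alone lies high. The log2 fold change of -0.61 (SE 0.36, adjusted p = 0.199) was 0.04 without wild type 1 and -1.03 without wild type 2 (adjusted p = 0.0252), and it also passed with abundance-dependent offsets (-1.03, adjusted p = 0.0362), so its direction rests on 1 library.

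**Figure D3:**
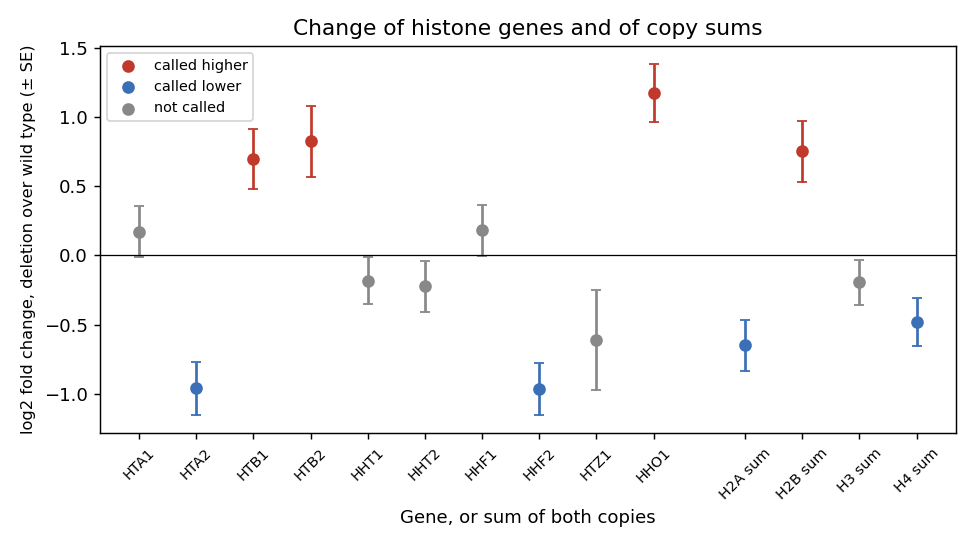
Log2 fold change with its standard error (deletion over wild type, n = 2 per strain) of each histone gene and of the summed copies of each core histone. HTA2 and HHF2 lie near -0.96 and their partners HTA1 and HHF1 near 0.17, while HTB1, HTB2 and HHO1 lie above 0.

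Summing both copies of each core histone, which is less open to reads assigned to the wrong copy, left H2A lower, H2B higher, H3 not called and H4 at the threshold. The H2A sum was 923 ± 116 CPM in wild type and 588 ± 45.9 CPM in the deletion strain (a log2 fold change of -0.65, SE 0.18, adjusted p = 0.0190). That call did not hold without wild type 1 (adjusted p = 0.0921), without deletion 3 (0.0949), with library totals (-0.20, 0.381) and with abundance-dependent offsets (-0.05, 0.826). The H2B sum was 60.3 ± 13.5 CPM against 102 ± 13.9 CPM (0.75, SE 0.22, adjusted p = 0.0224), a call lost without deletion 2 (0.0943) and without wild type 2 (0.102). The H3 sum was 1406 ± 3.71 CPM against 1228 ± 17.6 CPM (-0.19, SE 0.16, adjusted p = 0.356), and it turned to 0.25 with library totals and to 0.50 (adjusted p = 0.0366) with abundance-dependent offsets. The H4 sum was 705 ± 7.93 CPM against 505 ± 32.5 CPM (-0.48, SE 0.17, adjusted p = 0.0497), which passed in only 3 of 14 settings, the main fit included, and in none that left out 1 library (adjusted p = 0.129 without deletion 2, 0.247 without deletion 3, 0.120 without wild type 1 and 0.156 without wild type 2). In this fit 41.9% of 6120 features were called.

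Per length, the 4 core histones were far from equal in read counts. H2B made up 2.10% and 1.62% of the summed CPM per kb of the 4 types in wild type against 4.29% and 3.78% in the deletion strain. H2A made up 30.0% and 26.7% against 23.8% and 22.7%, H3 40.8% and 43.3% against 46.1% and 48.3%, and H4 27.1% and 28.4% against 25.8% and 25.2%. The strains did not overlap for any of the 4 types, where 74.7% of single features tested did not overlap in scaled CPM. The shares are parts of a common total, so they are not separate results. The H3 share was higher in the deletion strain although its summed CPM per kb was lower (3019 and 2958 against 3428 and 3415 in wild type). Which part of each transcript the reads covered was not tested.

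Genes on the 2 sides of one upstream region did not keep the same ratio. HTA2 had 26.1 and 30.5 times the counts of HTB2 in wild type and 7.45 and 9.06 times in the deletion strain, a 3.44-fold lower ratio. HTA1 had 5.04 and 6.08 times the counts of HTB1 against 3.8 and 3.84 times (1.45-fold lower). HHT1 to HHF1 went from 4.0 and 4.13 to 3.09 and 3.22 (1.29-fold lower), and HHT2 to HHF2 from 0.939 and 1.03 to 1.62 and 1.69 (1.68-fold higher). The strains did not overlap in any of the 4 ratios (exact permutation p = 0.333 for each, the smallest possible with these 4 libraries). Lack of overlap was common: 74.7% of single features tested did not overlap in scaled CPM, and no such share was computed for ratios. The ratios restate the changes of the single genes given above. The largest of these differences lies at the region that serves HTA2 and HTB2, printed above. With TMM factors 1 gene there fell and the other rose. Ratios of genes with unlike counts are open to a trend with abundance. With abundance-dependent offsets HTA2 (-0.437, adjusted p = 0.081) and HTB2 (0.718, adjusted p = 0.0527) did not pass the quasi-likelihood test. The log2 fold changes were then 0.486 for HTA1 and 0.671 for HTB1, and 0.455 for HHT1 and 0.546 for HHF1. For HHT2 and HHF2 they were 0.252 and -0.545.

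**Figure D4:**
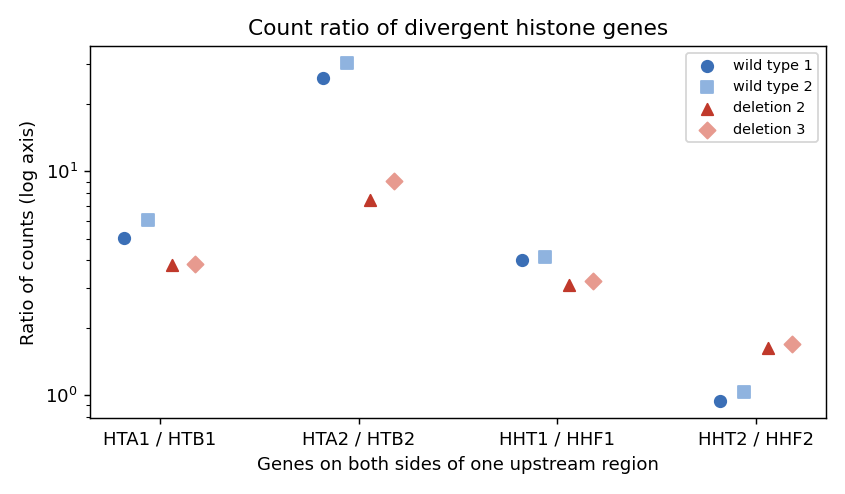
Ratio of the counts of the H2A to the H2B gene, or of the H3 to the H4 gene, that share 1 upstream region, in each library (log axis). The HTA2 to HTB2 ratio falls from 26.1 and 30.5 in wild type to 7.45 and 9.06 in the deletion strain, and the HHT2 to HHF2 ratio is higher in the deletion strain.

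The nearest protein-coding genes on either side of the 6 histone loci were read as a comparison by position. Of these 12 genes, 3 were called higher and 2 lower, against 41.1% of protein-coding rows called in either direction. PLB3, a phospholipase B gene beyond HTZ1, rose by 2.61 on the log2 scale (SE 0.39, adjusted p = 9.49e-04), and by 1.85 without deletion 2, the deletion libraries standing at 456 and 192 CPM. ADK1, the adenylate kinase gene downstream of HTA1, had a log2 fold change of -1.01 (SE 0.18, adjusted p = 0.00248), and -0.40 with abundance-dependent offsets (adjusted p = 0.110). CRF1 (1.18, beside HTB1) lost its call without deletion 2, deletion 3 or wild type 1 (adjusted p 0.129, 0.0781 and 0.0584). FLR1 (0.71, beside HHF1) lost it without deletion 2 or wild type 1 (0.236 and 0.157), and KTR5 (-0.72, beside HHF2) without deletion 2 or wild type 2 (0.0938 and 0.0957). The calls of CRF1 and FLR1 also went with abundance-dependent offsets (0.122 and 0.138), and that of KTR5 with library totals (0.324). The neighbours of HTA2 and HTB2, UTP20 (0.16, adjusted p = 0.623) and ECM15 (0.49, adjusted p = 0.0685), did not pass.

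Genes of factors that act on histone genes were called in both directions, and the lists below are read against the 41.9% of all features called (21.2% higher and 20.7% lower). Of 12 genes that control histone transcription, 2 were higher, 3 lower and 7 not called (median log2 fold change -0.11), a share near that of all features. SPT10 is the gene of an activator that binds the histone upstream activating sequence. It had 160 and 230 counts in wild type against 1583 and 1053 in the deletion strain. In scaled CPM it rose from 17.44 and 21.06 to 38.85 and 34.97 (log2 fold change 0.94, SE 0.22, adjusted p = 0.00893). Its log2 fold change was 0.746 to 1.38 over all 14 settings. The 4 genes of the HIR complex, the corepressor of histone genes, split: HIR1 (-0.86, adjusted p = 0.0166) and HIR2 (-0.63, adjusted p = 0.0285) fell, HIR3 did not pass (-0.49, adjusted p = 0.0599), and HPC2 rose (0.90, adjusted p = 0.0426). HPC2 and HIR3 were added after their values were seen, and the HPC2 call was lost without deletion 2 (0.331), without wild type 2 (0.127) and with abundance-dependent offsets (0.334). Lower too was RTT106, a histone chaperone that acts with this complex (-0.77, adjusted p = 0.0179). The 3 lower calls became 0 without deletion 2 (adjusted p 0.0717 for HIR1, 0.202 for HIR2 and 0.0528 for RTT106) and 0 without wild type 2 (0.118, 0.0860 and 0.121), that of HIR2 was also lost without wild type 1 (0.0520) and with upper-quartile factors (0.0660), and the 2 higher calls became 1 without wild type 2. Of 4 factors linked to histone mRNA turnover, RRP6, the nuclear exosome nuclease, was called higher (0.69, adjusted p = 0.0210), but not without deletion 2 (0.164) or wild type 2 (0.0724).

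Among 14 genes of histone chaperones, histone import and the centromere, 1 was higher, 3 were lower and 10 were not called (median -0.40), a smaller share than the 41.9% of all features. POB3, a subunit of the FACT chaperone, fell (-1.13, SE 0.21, adjusted p = 0.00315), as did SPT6, an elongation factor that binds histones (-1.08, SE 0.22, adjusted p = 0.00406). The 1 higher call became 0 without deletion 2, without deletion 3, with DESeq2 or with abundance-dependent offsets, and the 3 lower calls became 2 without deletion 2 or without wild type 2. CSE4, the H3 variant of the centromere, had 138 and 200 counts in wild type against 829 and 628 in the deletion strain. In scaled CPM that is 15.04 and 18.32 against 20.35 and 20.86, and it did not pass (0.30, SE 0.24, adjusted p = 0.327). The log2 fold change of CSE4 was 0.75 with library totals (adjusted p = 0.0276) and -0.0088 with abundance-dependent offsets. Of 14 genes that deposit or chaperone H2A.Z, 2 were higher and 2 lower (median -0.13), also a smaller share than 41.9%. SWC4, a subunit of the SWR1 complex, rose by 1.81 on the log2 scale (SE 0.25, adjusted p = 7.59e-04), and CHZ1, a chaperone of H2A.Z, fell (-0.92, SE 0.20, adjusted p = 0.00561; 0.0895 with library totals). The higher calls became 1 without deletion 2, and the lower calls 1 without deletion 2, deletion 3 or wild type 2.

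Of 21 acetylation and deacetylation genes, 1 was higher and 4 were lower (median -0.21), again a smaller share than the 41.9% of all features. HIF1, of the Hat1 acetyltransferase complex, stood at -0.92 (SE 0.20, adjusted p = 0.00582; 0.0825 with library totals). The lower calls became 2 without deletion 2 and 1 without deletion 3 or wild type 2, and the higher call became 0 without deletion 2. Of 12 methylation and ubiquitination genes, 5 were higher and 3 lower (median 0.31, against 21.2% and 20.7% of all features). RPH1, an H3 lysine demethylase gene, was among the higher ones (1.29, SE 0.20, adjusted p = 0.00140). SET2, the H3 lysine methyltransferase that travels with RNA polymerase, was among the lower ones (-1.09, SE 0.25, adjusted p = 0.00859), but not without wild type 2 (0.0646) or with library totals (0.0563). The higher calls became 2 without deletion 2 and 3 without wild type 2, and 1 with abundance-dependent offsets; the lower calls became 0 without wild type 2. With library totals, which moved the median of all features to 0.464, no gene of the transcription, H2A.Z, acetylation and methylation lists was called lower, and 5, 4, 5 and 7 were called higher; of the chaperone list 4 were then higher and 2 lower.

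Lists of genes with peaks in other parts of the cell cycle are given beside the S-phase histone genes, since phase was not measured. Of 23 DNA replication and G1/S genes, 10 were lower, 0 higher and 13 not called (median -0.43, against 0.0146 over all features and 20.7% of features called lower); the count of higher calls was 0 with DESeq2 too, 0 at an unadjusted p below 0.05, and 2 with library totals. PRI1, a primase subunit (-1.30, SE 0.23, adjusted p = 0.00242), and SMC3, of cohesin (-1.06, SE 0.21, adjusted p = 0.00387), fell. The 10 lower calls became 5 without deletion 2 or wild type 2 and 3 with library totals. Of 16 G2/M genes, 4 were higher and 0 lower (median 0.40), beside 21.2% of all features called higher, with the kinase gene KIN3 (1.35, SE 0.21, adjusted p = 0.00129) among them, and 2 were higher without deletion 3 and 11 with library totals. Of 13 M/G1 genes, 4 were higher and 0 lower (median 0.34), beside the same 21.2%, with SIC1, the inhibitor of S-phase cyclin kinase, at 0.91 (SE 0.21, adjusted p = 0.00757), and 2 were higher without wild type 2. In both lists no gene was lower with DESeq2 or at an unadjusted p below 0.05 (0 genes each). The part of cell cycle phase in the histone values was not tested.

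**Figure D5:**
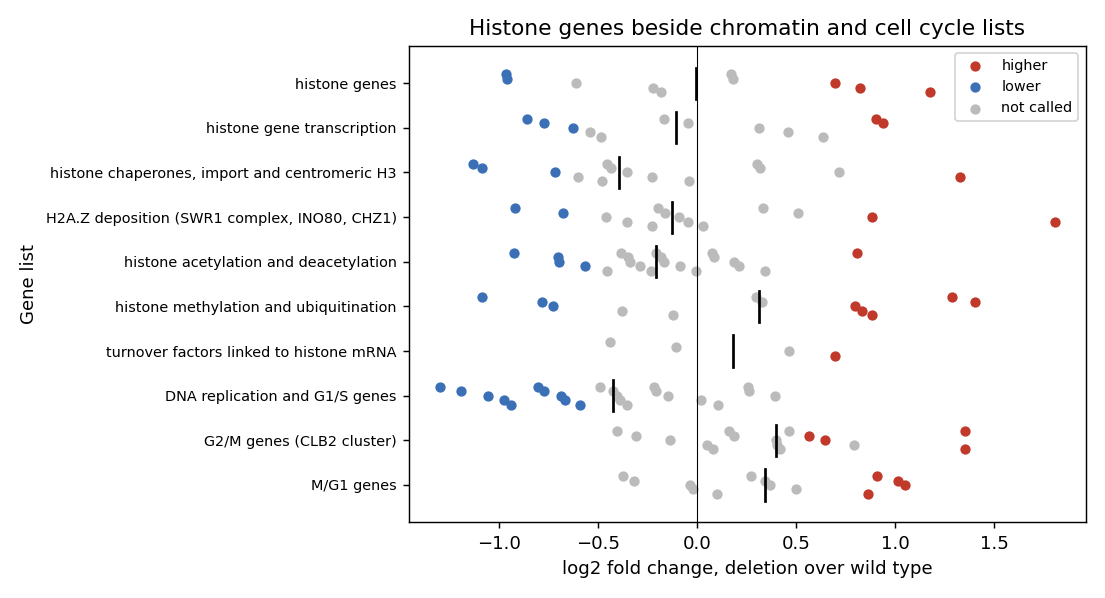
Log2 fold change (deletion over wild type) of each tested gene in the histone group and in 9 lists, with the median of each list as a black bar and called genes in colour. The histone genes spread to both sides of 0, the replication list has its called genes below 0 and the G2/M and M/G1 lists above 0.

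The mean profile of the 8 core genes, centred over the 4 libraries on the log2 scale, was nearly flat (0.12 and -0.059 in the wild-type libraries, 0.054 and -0.11 in deletion 2 and 3). This mean averages genes that moved in opposite directions (log2 fold changes from -0.968 to 0.824), so it does not describe the called core genes. The genes nearest to the mean profile by root mean square distance were SLY41 (0.00776), TUB1 (0.0141), CHS5 (0.0247), HRD3 (0.0333) and YLR112W (0.0355), as a description over 4 libraries. In the authors' deposited table the same 5 histone genes passed an adjusted p below 0.05, with log2 fold changes of -0.94 for HTA2 and for HHF2, 0.72 for HTB1, 0.85 for HTB2 and 1.20 for HHO1.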

How the data were processed

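The authors deposited whole-number counts of sense-strand reads per feature, which the headers and values show to be unnormalized. Per the submitters' processing notes, reads were placed on sacCer3 (R64) and edgeR was used; no aligner or counter is given in the sources used here. A second table by the authors, deposited with the counts, gives a log2 fold change, a mean log2 CPM, a p-value and an adjusted p-value per feature, per the file headers.

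Rows were matched to RefSeq R64 by systematic name (6053 rows), symbol (123) or synonym (3), and 955 rows kept their own names. The test was run in edgeR 4.0.16 (R 4.3.3): filterByExpr, TMM factors, glmQLFit and glmQLFTest, with Benjamini-Hochberg adjustment over all features tested and a threshold of 0.05. The standard error is the size of the log2 fold change divided by the square root of F. CPM is TMM-scaled. The pair-sum fit replaces the 8 core rows by 4 sums. Alternatives were library totals, RLE and upper-quartile factors, abundance-dependent (loess) offsets, protein-coding rows only, no filter, DESeq2 1.42.0, edgeR's exact and likelihood-ratio tests, and leaving out each library. At these depths 3 counts, the limit that a count of 0 allows, are 0.0833 to 0.276 unscaled CPM.

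The histone genes, the gene lists and the alternatives were chosen with earlier results of these data known. Genes named from a list are among its 4 smallest p-values; some of those genes are left out, CSE4 was named by itself in the rule, and HPC2 and HIR3 were added. Motifs and printed stretches were chosen after the values were seen.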

Additional observations from a re-analysis of the deposited data

How the results depend on the processing

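No paired analysis was possible because the count columns are numbered 1 and 2 for wild type but 2 and 3 for the deletion, and so share fewer than 2 numbers; the labels number the replicates of both strains 1 and 2 but do not tie a column to a number. Fits with 1 library left out assume that the lone library varies like the others. Over all features, 2569 were called; library totals moved the median of all features from 0.0146 to 0.464 and the share of calls that were higher from 50.6% to 81.1% (2502 higher and 583 lower), and the count ran from 1724 to 2440 with 1 library left out. Of the histone genes, 5 were called (3 to 5 with 1 library left out; 1 to 3 higher), and 5 were called higher with library totals. Of the copy sums, 3 were called, and 1 with library totals or with any 1 library left out; 2 sums were higher with abundance-dependent offsets, and 0 to 1 with 1 library left out. Of these sums 2 were lower, against 0 with library totals and with abundance-dependent offsets, 1 with RLE factors, upper-quartile factors, no filter, edgeR's exact test and its likelihood-ratio test, and 0 to 1 with 1 library left out. Directions turned for HHT1 (0.27 with library totals, 0.46 with abundance-dependent offsets), HHT2 (0.22 and 0.25), the H3 sum (0.25 and 0.50), the H4 sum (0.0688 with those offsets), CSE4 (-0.0088 with those offsets) and HTZ1 (0.0446 without wild type 1, -1.03 without wild type 2). The cause was not tested. The copy shares do not depend on a single factor per library, but abundance-dependent offsets can shift 1 copy against the other.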
